A study of Xenopus laevis with 6 samples.

Results

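The genes described here are those of the piRNA pathway and the Tudor family that works with it, in primordial germ cells (PGCs) and endoderm of Xenopus laevis. They were chosen by symbol, as every gene model in either of 2 deposited count tables named for a PIWI protein, a numbered TDRD protein, or tdrkh, mael, mov10l1, asz1, pld6, ddx4, henmt1, gtsf1, rnf17, exd1 or tex15. This gave 17 of the 10364 gene models of the table tagged v9.1 and 11 of the 7902 of the table tagged v7.1. The 28 gene models carried 19 symbols, of which 5 (asz1, ddx4, tdrd12, tdrd3 and tdrd7) were in both tables, 9 in v9.1 alone and 5 in v7.1 alone. rnf17 was not analysed here.

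RNA was taken from 2 kinds of cell of stage 12-14 embryos: PGCs, the embryonic precursors of eggs and sperm, and stage-matched endoderm cells that lie next to them. Each group has 3 libraries, and all cells came from embryos of X. laevis for which the labels name no mutation or treatment. The study compared the groups to find RNAs enriched in PGCs once the lineages have separated. Per the labels' protocols, 3 aliquots of 1 ng of each rRNA-depleted sample were made into libraries, so the 3 libraries of a group may share their RNA, and the p-values then measure only the spread between these libraries.

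PIWI-interacting RNAs (piRNAs) are small RNAs of animal germ cells that guide PIWI proteins, a branch of the Argonaute family, to transposon transcripts. Long precursor transcripts are unwound, cut on the outer membrane of mitochondria, trimmed and methylated, and they are amplified in cytoplasmic granules (nuage) where slicing by one PIWI protein loads another. Tudor domains bind methylated arginines of PIWI proteins and gather the pathway into these granules. In Xenopus, PGCs inherit germ plasm, a part of the vegetal egg cytoplasm rich in RNA and mitochondria that holds such granules, so RNA counted at this stage can be maternal or newly made, and counts do not tell these apart.

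Total counts in v9.1 were 16.9, 14.8 and 14.5 M in PGC libraries 1 to 3 and 28.3, 20.2 and 9.94 M in endoderm libraries 1 to 3. All gene models of both tables entered the test, and the smallest total of a gene model over the 6 libraries was 150 counts in each. Gene models with fewer counts may thus have been left out before deposit. A symbol without a gene model here may be lowly counted or not annotated, which cannot be told apart. The labels were checked against 5 germ cell genes (nanos1, dazl, ddx25, dnd1 and grip2), whose 6 gene models were all higher in PGCs, with summed levels of 134895 to 136498 CPM (counts per M, scaled as given below) in PGC libraries and 631 to 684 CPM in endoderm libraries. The summed level of 14 gene models of endoderm markers was 9244 to 9447 CPM in PGC libraries and 22822 to 23113 CPM in endoderm libraries. Most of each sum was a2m, with means of 7024.9 CPM in PGCs and 19740.5 CPM in endoderm. Of the 14, 8 were lower in PGCs and 3 higher, which were both gene models of gata4 and mixer Xelaev18026298m. This balance depended on scaling: with scaling that follows expression level (lowess offsets) 4 were higher and 4 lower, and the median log2 fold change of the list was 0.16, against -0.71 with TMM, 1 scaling factor per library. Markers of other germ layers also moved with the groups. Only 5 of 10 mesoderm symbols and 5 of 11 ectoderm and neural symbols looked for had a gene model. Of 10 mesoderm gene models, 4 passed the test, all 4 as higher in PGCs, with sums of 231 to 297 CPM in PGC libraries and 78.0 to 131 CPM in endoderm libraries. Of 8 ectoderm and neural gene models, 6 were higher and 2 lower, with sums of 324 to 346 CPM in PGC libraries and 184 to 220 CPM in endoderm libraries. No gene model of these marker lists was at 0 in all libraries of a group, but some were close to 0 in endoderm. In PGC libraries 1 to 3, twist1 Xelaev18030956m had 1121, 744 and 919 counts, against 4, 0 and 0 in endoderm libraries 1 to 3. The same libraries held 661, 333 and 246 against 1, 0 and 0 for pcdh8 Xelaev18015748m. They held 204, 144 and 155 against 1, 0 and 0 for sox2, and 830, 853 and 830 against 12, 0 and 0 for zic1 Xelaev18029829m. The part of other cell types in the results below was not tested.

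The piRNA and Tudor genes did not move as a block. In v9.1, 4 of the 17 gene models were higher in PGCs, which were both gene models of tex15, that of mov10l1 and that of tdrd12, and 1 gene model of ddx4 was lower. The other 12 did not pass the test, the edgeR quasi-likelihood test with p-values adjusted over the whole table (Benjamini-Hochberg) at a threshold of 0.05. Over all gene models of v9.1, 29.3% passed, 12.6% as higher and 16.8% as lower in PGCs. In v7.1, 1 of 11 was higher (a gene model of tdrd12) and 1 was lower (ddx4), while 28.9% of all gene models passed, 12.8% as higher and 16.1% as lower. The balance over all gene models depended on scaling: of those that passed in v9.1, 42.8% were higher with TMM, 63.4% with total counts alone and 52.8% with lowess offsets. In v7.1 these shares were 44.3%, 56.5% and 53.6%. The median log2 fold change, PGC over endoderm, was 0.74 over the 17 gene models against 0.07 over all of v9.1, and 0.64 over the 11 against 0.06 over all of v7.1. The typical value varied with level. Gene models of v9.1 with a mean level within 2-fold of tdrd12, mov10l1 and ddx4 Xelaev18008273m had medians of 0.25, -0.06 and -0.77. Levels below are CPM scaled by TMM for library size and composition, which are not per length and so are compared between cells, not between genes. A lower level in bulk RNA can come from fewer cells that hold the RNA or from less RNA per cell, which cannot be told apart.

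**Figure D1:**
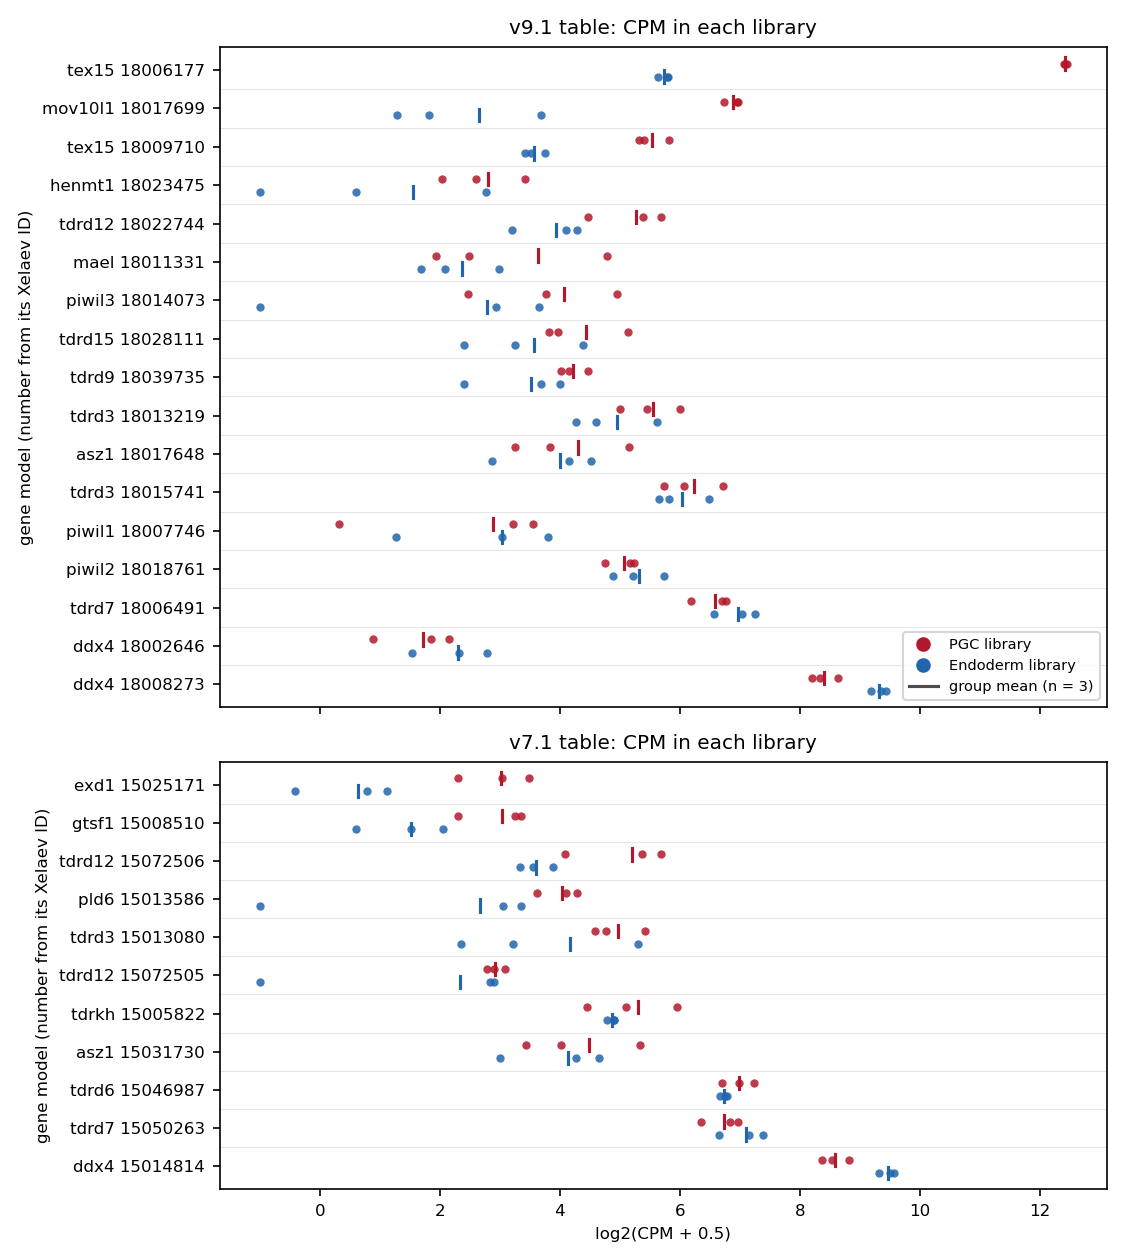
Level of each piRNA and Tudor gene model in every library, as log2(CPM + 0.5), for PGCs (red, above) and endoderm (blue, below) in the v9.1 and v7.1 tables; ticks are means of 3 libraries per group. The PGC and endoderm points of tex15 and mov10l1 lie far apart, those of ddx4 Xelaev18008273m lie apart with endoderm higher, and 11 of 17 gene models in v9.1 overlap.

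tex15 showed the largest difference of the 28 gene models. In mouse, TEX15 acts in the nucleus of male germ cells, where it is needed for piRNA-guided DNA methylation of transposons. Here the name rests on the deposited symbol alone, as RefSeq's Xenopus_laevis_v10.1 table held no gene named tex15. The gene model Xelaev18006177m had 5399, 5593 and 5507 CPM in PGC libraries 1 to 3, against 54.5, 55.6 and 49.0 CPM in endoderm libraries 1 to 3. These values rest on 101767, 91962 and 89592 counts in PGCs and 1402, 999 and 432 counts in endoderm, and no library of one group came near the other. The log2 fold change was 6.69 ± 0.065 (SE), a 104-fold higher level in PGCs (adjusted p = 1.86e-14, edgeR quasi-likelihood test). Of the 57 gene models with a mean level within 2-fold of its own, 93.0% had a fold change below 0, and their median on the log2 scale was -1.54. With lowess offsets the value of tex15 was 8.21.

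The second tex15 gene model, Xelaev18009710m, had 41.9, 56.0 and 39.3 CPM in PGC libraries 1 to 3, against 11.0, 10.2 and 13.0 CPM in endoderm libraries 1 to 3. The groups did not overlap, and the log2 fold change was 2.01 ± 0.36 (SE; adjusted p = 0.00147, edgeR). The PGC over endoderm ratio thus differed between the gene models of one symbol. A fit of both with each library as a block gave a difference of -4.69 ± 0.17 (SE) on the log2 scale for Xelaev18009710m minus Xelaev18006177m (adjusted p = 4.1e-06, edgeR, over 3512 symbols with exactly 2 gene models, of which 9.74% passed). That fit takes 1 dispersion for both gene models, which gives a smaller SE than Xelaev18009710m has alone. The v9.1 table does not say whether the 2 gene models are the copies on the L and S subgenomes of this allotetraploid frog, and reads could be split between near-identical copies, so the share of each is uncertain.

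tex15 took most of the counts that these genes had in the PGC libraries of v9.1, a share of reads that is not per length. Its gene models together took 0.619 ± 0.0107% of a PGC library and 0.00577 ± 0.000237% of an endoderm library (SD, n = 3 libraries each). The other 15 gene models of v9.1 together took 0.0946 ± 0.0126% of a PGC library and 0.0883 ± 0.0111% of an endoderm library. Their ranges overlapped between the groups. This sum joins gene models that went opposite ways, mov10l1 higher and ddx4 Xelaev18008273m lower in PGCs. All these shares are of total counts, without TMM.

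mov10l1 was the second gene with a large difference. In mouse, MOV10L1 is the RNA helicase that binds piRNA precursor transcripts and feeds them into processing. Its gene model Xelaev18017699m had 106, 124 and 126 CPM in PGC libraries 1 to 3, against 3.03, 12.4 and 1.93 CPM in endoderm libraries 1 to 3. The PGC libraries lay close together and far above all endoderm libraries, among which library 2 was the highest. The level averaged 118 ± 10.9 CPM in PGCs and 5.77 ± 5.73 CPM in endoderm (SD, n = 3 each), with a log2 fold change of 4.33 ± 0.50 (SE; adjusted p = 9.73e-05, edgeR). Without endoderm replicate 2 the log2 fold change was 5.54.

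The related helicase gene mov10, which is broadly expressed and acts with Argonaute proteins, gives a comparison outside the piRNA pathway. Its gene model Xelaev18012344m averaged 890 ± 50.6 CPM in PGCs and 59.5 ± 14.8 CPM in endoderm (SD, n = 3 each), a log2 fold change of 3.90 ± 0.16 (SE), and it passed the same test.

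tdrd12 encodes a Tudor protein with a helicase-like region that is needed for piRNA amplification in mouse. In v9.1 its gene model Xelaev18022744m had 21.7, 50.9 and 41.4 CPM in PGC libraries 1 to 3, against 19.0, 16.6 and 8.73 CPM in endoderm libraries 1 to 3. The groups did not overlap, but the lowest PGC library lay only just above the highest endoderm library. The log2 fold change was 1.36 ± 0.46 (SE; adjusted p = 0.0443, edgeR). The call was lost with lowess offsets, at 1.09, and in 5 of the 6 fits without 1 library, with 1.09 and 1.29 without PGC replicates 2 and 3 and 1.64, 1.46 and 1.12 without endoderm replicates 1, 2 and 3.

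The v7.1 table divides tdrd12 in 2, and in every library the counts of these 2 gene models add up exactly to the count of the v9.1 gene model. Xelaev15072506m, which held 78.7% of those counts, had 16.5, 51.1 and 40.8 CPM in PGC libraries 1 to 3, against 14.2, 11.2 and 9.62 CPM in endoderm libraries 1 to 3, with a log2 fold change of 1.62 ± 0.50 (SE; adjusted p = 0.029, edgeR). That call was lost without PGC replicates 2 and 3, at 1.29 and 1.53, without endoderm replicate 3, at 1.53, and with lowess offsets, at 1.32. Xelaev15072505m had 7.97, 6.93 and 6.38 CPM in PGC libraries 1 to 3, against 6.61, 6.96 and 0 CPM in endoderm libraries 1 to 3, where 3 counts in the last library would be 0.375 CPM. The groups overlapped, and its log2 fold change was 0.64 ± 1.46 (SE; adjusted p = 0.797, edgeR). With counts that add up exactly, the tables are not independent for tdrd12.

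ddx4, the Vasa gene, encodes a DEAD-box RNA helicase that marks germ cells in most animals and helps pass piRNA intermediates between PIWI proteins. It went the other way. Its gene model Xelaev18008273m had 294, 325 and 398 CPM in PGC libraries 1 to 3, against 580, 692 and 655 CPM in endoderm libraries 1 to 3. Every PGC library was below every endoderm library. The level averaged 339 ± 53.1 CPM in PGCs and 642 ± 57.3 CPM in endoderm (SD, n = 3 each), a log2 fold change of -0.92 ± 0.13 (SE; adjusted p = 0.000204, edgeR). The v7.1 gene model Xelaev15014814m, named ddx4.L there, differed from it by at most 1 count in any library and had a log2 fold change of -0.87 ± 0.13 (SE; adjusted p = 0.000222, edgeR).

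The ddx4 result depended on how libraries were scaled. With lowess offsets the log2 fold change was -0.11 in v9.1 and, for the v7.1 gene model, -0.17, and neither passed. Of the 590 gene models of v9.1 with a mean level within 2-fold of that of Xelaev18008273m, 85.1% were below 0 and 73.2% passed as lower in PGCs, with a median log2 fold change of -0.77. The second ddx4 gene model of v9.1, Xelaev18002646m, had 3.93, 3.10 and 1.35 CPM in PGC libraries 1 to 3, against 4.47, 6.40 and 2.38 CPM in endoderm libraries 1 to 3. Its groups overlapped, with a log2 fold change of -0.66 ± 1.35 (SE; adjusted p = 0.769, edgeR). The difference between the ddx4 gene models was -0.25 ± 0.49 (SE; adjusted p = 0.791, edgeR) for Xelaev18008273m minus Xelaev18002646m. That fit too takes 1 dispersion for both gene models, and its SE is below the 1.35 of Xelaev18002646m alone. It thus does not show that the 2 gene models are alike.

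**Figure D2:**
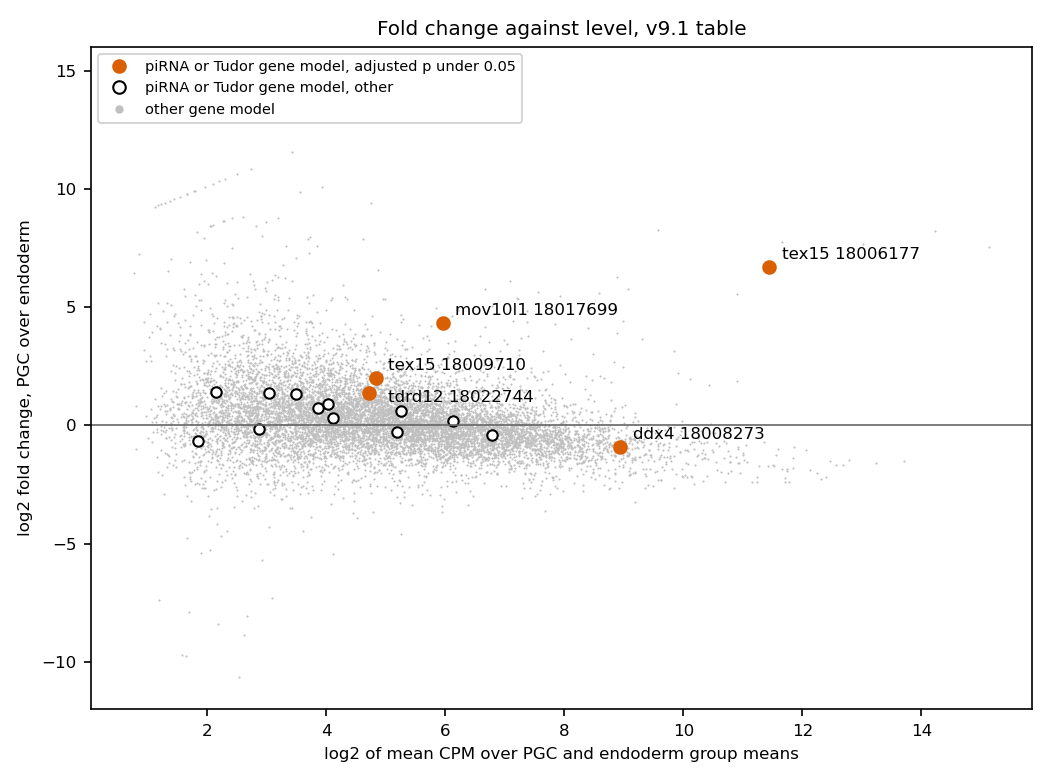
Log2 fold change, PGC over endoderm, against the log2 of the mean CPM of both groups, for all 10364 gene models of v9.1 (grey) and the 17 piRNA and Tudor gene models (circles; filled orange where the adjusted p was under 0.05). tex15 Xelaev18006177m stands at 6.69 among highly counted gene models, and ddx4 Xelaev18008273m at -0.92 lies with many grey points below 0.

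The PIWI genes measured here, piwil1, piwil2 and piwil3, which encode slicing proteins of the pathway, did not pass the test in either direction. piwil2 had 37.1, 35.5 and 26.5 CPM in PGC libraries 1 to 3, against 36.7, 53.0 and 29.1 CPM in endoderm libraries 1 to 3, ranges that overlapped. Its log2 fold change was -0.26 ± 0.35 (SE), with a 95% interval of -1.01 to 0.49, which barely reaches a 2-fold lower level and leaves out a 2-fold higher one. piwil1 had 0.743, 8.76 and 11.2 CPM in PGC libraries 1 to 3, against 1.91, 13.4 and 7.71 CPM in endoderm libraries 1 to 3. Library 1 was the lowest in each group, and the log2 fold change of -0.15 ± 1.15 (SE) had an interval of -2.66 to 2.35. piwil3 had 13.1, 5.05 and 30.5 CPM in PGC libraries 1 to 3, against 7.19, 0 and 12.0 CPM in endoderm libraries 1 to 3, where 3 counts in the library at 0 would be 0.167 CPM. Its groups overlapped, and the log2 fold change of 1.35 ± 1.26 (SE) had an interval of -1.41 to 4.10. For piwil1 and piwil3 a difference of 2-fold in either direction was not detectable at this depth and spread.

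Factors that make and finish piRNAs, some of them on mitochondria, varied between libraries of PGCs, endoderm or both and did not pass. pld6, the mitochondrial nuclease known as Zucchini in fly, was measured in v7.1 and had 19.1, 11.9 and 16.7 CPM in PGC libraries 1 to 3, against 7.81, 9.77 and 0 CPM in endoderm libraries 1 to 3, where 3 counts in the library at 0 would be 0.375 CPM. All PGC libraries were higher, but the log2 fold change of 1.43 ± 1.15 (SE) did not pass (adjusted p = 0.419, edgeR). tdrkh, the Tudor partner of the trimming step on mitochondria, had a log2 fold change of 0.44 ± 0.42 (SE), with 34.0, 61.2 and 21.5 CPM in PGC libraries 1 to 3, against 29.3, 29.5 and 27.0 CPM in endoderm libraries 1 to 3. The endoderm values of tdrkh were nearly equal and fell within the range of the PGC values.

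asz1, a scaffold on the mitochondrial surface, had 13.7, 9.0 and 35.1 CPM in PGC libraries 1 to 3, against 22.5, 17.4 and 6.80 CPM in endoderm libraries 1 to 3. Its log2 fold change was 0.31 ± 0.64 (SE) in v9.1 and 0.37 ± 0.64 (SE) in v7.1. Its sign turned without PGC replicate 3, to -0.45 in v9.1 and -0.39 in v7.1, gene models whose counts differed by at most 4 in any library. henmt1, the methyltransferase that protects the ends of mature piRNAs, had 10.2, 3.59 and 5.59 CPM in PGC libraries 1 to 3, against 1.01, 6.29 and 0 CPM in endoderm libraries 1 to 3, where 3 counts would be 0.340 CPM. Its log2 fold change of 1.40 ± 1.55 (SE) did not pass (adjusted p = 0.565, edgeR).

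A further pair of genes, measured in v7.1, had higher levels in every PGC library than in any endoderm library without passing. exd1, a partner of TDRD12 in mouse, had 7.67, 4.44 and 10.7 CPM in PGC libraries 1 to 3, against 1.66, 1.22 and 0.25 CPM in endoderm libraries 1 to 3, with a log2 fold change of 2.84 ± 1.40 (SE; adjusted p = 0.183, edgeR). By the DESeq2 Wald test it passed, at 2.90 (adjusted p = 0.0349). gtsf1, a zinc finger protein that aids slicing by PIWI proteins, had 9.05, 4.44 and 9.67 CPM in PGC libraries 1 to 3, against 1.02, 3.66 and 2.37 CPM in endoderm libraries 1 to 3. Its log2 fold change was 1.71 ± 1.27 (SE; adjusted p = 0.38, edgeR).

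Of the Tudor scaffolds of nuage with a gene model in v9.1 or v7.1, none but tdrd12 passed. Numbered TDRD genes other than tdrd3, tdrd6, tdrd7, tdrd9, tdrd12 and tdrd15 had no gene model there, through low counts or lack of annotation, and were not tested. tdrd6, a large multi-Tudor protein of germ granules, had 150, 127 and 104 CPM in PGC libraries 1 to 3, against 108, 101 and 109.8 CPM in endoderm libraries 1 to 3. Its log2 fold change was 0.26 ± 0.20 (SE), and the 95% interval, -0.18 to 0.69, lies inside 2-fold in both directions. tdrd7, another granule protein of the family, had 104, 72.4 and 109 CPM in PGC libraries 1 to 3, against 130.1, 152 and 94.6 CPM in endoderm libraries 1 to 3. Its interval in v9.1 was -0.89 to 0.10 around -0.40 ± 0.23 (SE), and in v7.1 the log2 fold change was -0.36 ± 0.24 (SE), both also inside 2-fold. The counts of the tdrd7 gene models of both tables differed by at most 55 in any library.

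tdrd9, a helicase with a Tudor domain that works with a PIWI protein in mouse, had 15.7, 21.5 and 17.3 CPM in PGC libraries 1 to 3, against 15.6, 4.79 and 12.4 CPM in endoderm libraries 1 to 3. The groups did not overlap, by a narrow margin, and the log2 fold change of 0.74 ± 0.60 (SE) did not pass. tdrd15 had 15.2, 13.6 and 34.6 CPM in PGC libraries 1 to 3, against 8.98, 20.4 and 4.76 CPM in endoderm libraries 1 to 3, with a log2 fold change of 0.89 ± 0.65 (SE). mael, the nuage protein Maelstrom, had 5.09, 27.2 and 3.32 CPM in PGC libraries 1 to 3, against 7.46, 2.73 and 3.74 CPM in endoderm libraries 1 to 3. PGC library 2 alone stood out, and without it the log2 fold change of mael was -0.14 instead of 1.35 ± 1.01 (SE).

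tdrd3 belongs here by its name, since its protein reads methylated arginines on histones and works with a topoisomerase and is no core piRNA factor. Its v9.1 gene models had log2 fold changes of 0.60 ± 0.41 (SE) for Xelaev18013219m and 0.20 ± 0.31 (SE) for Xelaev18015741m. The difference between them, Xelaev18015741m minus Xelaev18013219m, was -0.49 ± 0.53 (SE; adjusted p = 0.624, edgeR). Xelaev18013219m had 64.0, 43.4 and 31.7 CPM in PGC libraries 1 to 3, against 18.9, 48.7 and 23.9 CPM in endoderm libraries 1 to 3. Xelaev18015741m had 66.5, 52.7 and 104 CPM in PGC libraries 1 to 3, against 55.9, 89.3 and 49.7 CPM in endoderm libraries 1 to 3. The groups overlapped for both. In v7.1 tdrd3 had 42.5, 26.6 and 23.5 CPM in PGC libraries 1 to 3, against 8.83, 39.0 and 4.62 CPM in endoderm libraries 1 to 3, where library 2 was far above the others. The log2 fold change there was 0.82 ± 0.67 (SE), and it passed only without endoderm replicate 2, at 2.21 (adjusted p = 0.0146, edgeR).

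**Figure D3:**
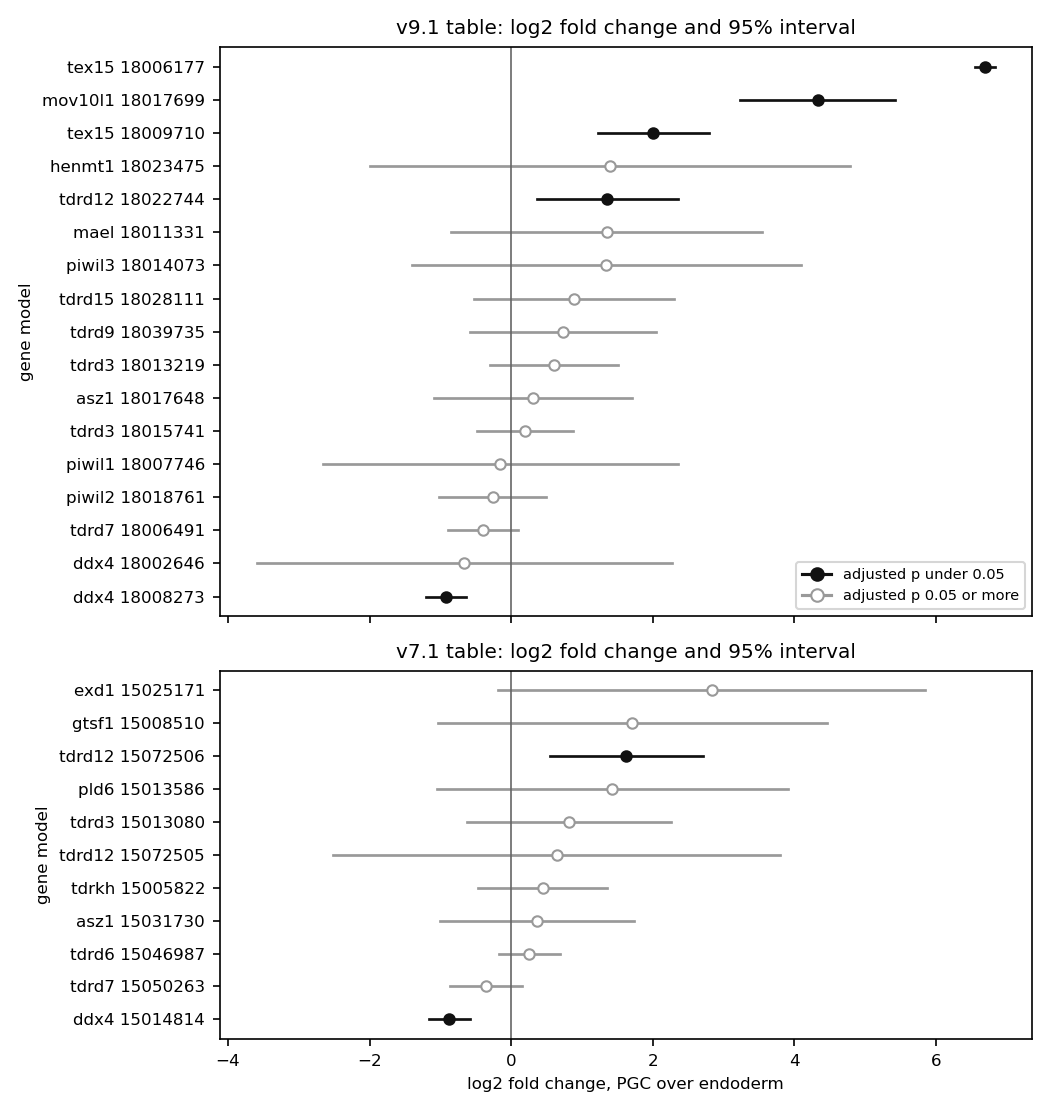
Log2 fold change, PGC over endoderm, of each piRNA and Tudor gene model with its 95% interval, in v9.1 (above) and v7.1 (below); filled black points had an adjusted p under 0.05. The interval of tex15 Xelaev18006177m is the narrowest, around 6.69. Several intervals reach beyond 2-fold on both sides of 0, among them those of henmt1, piwil1 and piwil3.

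Most of these genes were measured with little precision. Between libraries of a group, the coefficient of variation had a median of 35.9% in PGCs and 50.8% in endoderm over the 17 gene models, against 26.7% in PGCs and 28.2% in endoderm over all of v9.1. Of the 12 gene models of v9.1 that did not pass, 10 had a 95% interval that still held a 2-fold difference in at least 1 direction, and 2 (tdrd7 and tdrd3 Xelaev18015741m) had an interval inside 2-fold. In v7.1 this was so for 7 and 2 of the 9 that did not pass. Without regard to the test, all PGC libraries were above all endoderm libraries for 5 of 17 gene models of v9.1 and below them for 1, and for 4 and 1 of 11 in v7.1. Of all gene models, the libraries of the groups did not overlap for 48.2% in v9.1 and 46.5% in v7.1.

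At an FDR under 0.05, a threshold set here, the authors' deposited table gave the same number of calls for these genes. These were 4 higher and 1 lower in v9.1 and 1 higher and 1 lower in v7.1. The authors' values come from the same libraries and are no independent check. As PGC over endoderm, the authors' deposited table held a ratio of 103 for tex15 Xelaev18006177m, 4.02 for tex15 Xelaev18009710m, 20.3 for mov10l1, 2.56 for tdrd12 Xelaev18022744m and 0.527 for ddx4 Xelaev18008273m. For exd1 the authors' deposited table had a ratio of 7.11 with an FDR of 0.0685.

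**Figure D4:**
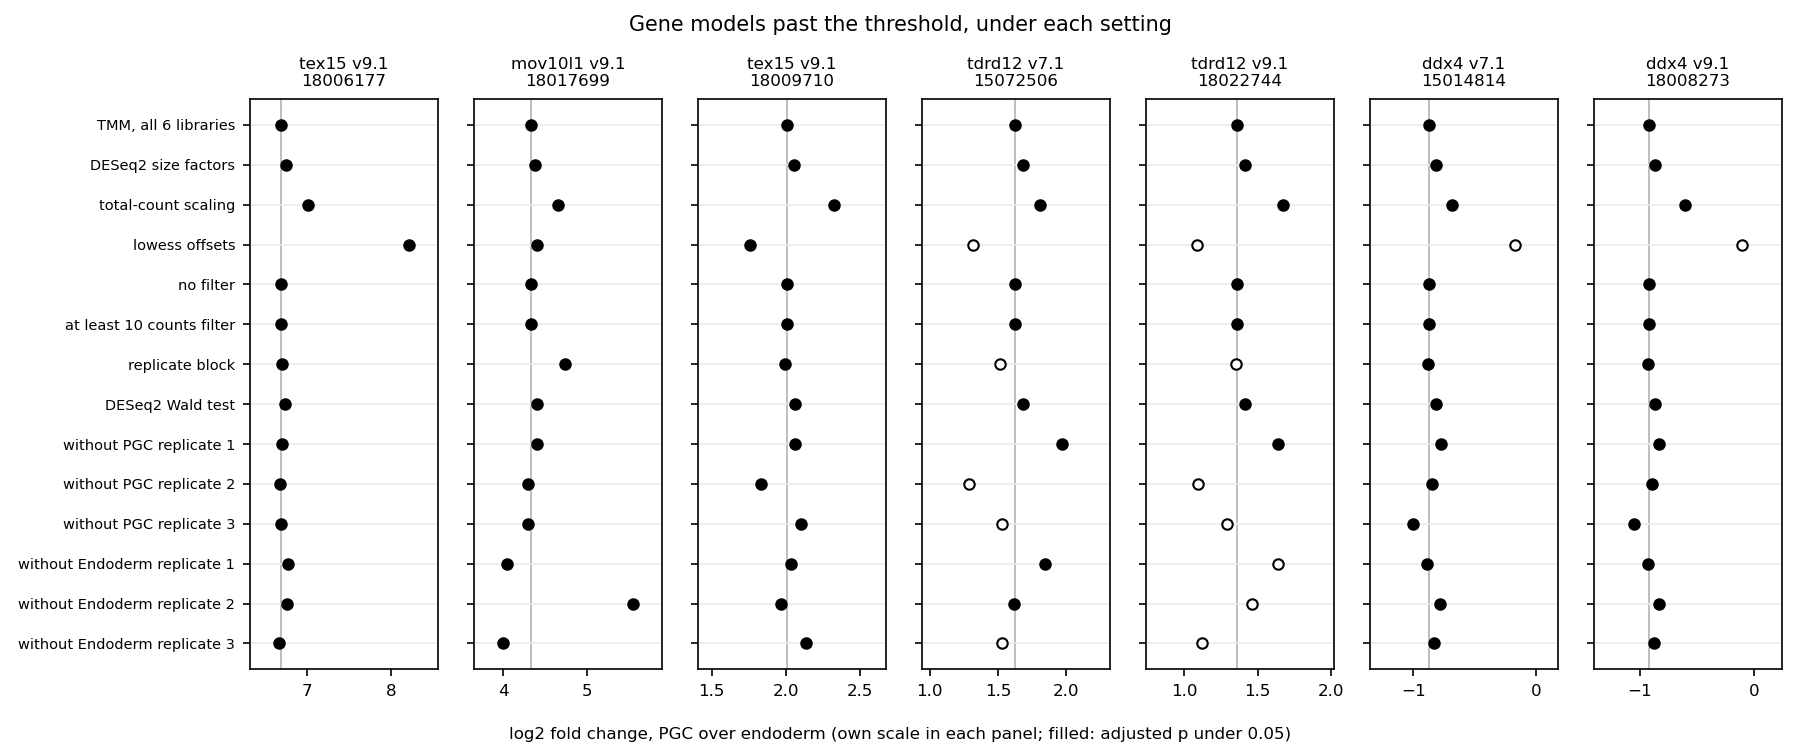
Log2 fold change, PGC over endoderm, of the 7 gene models that passed the test in either table, under each way of scaling, filtering and testing and without each library in turn; each panel has its own axis, the grey line is the value with TMM and all 6 libraries, and filled points had an adjusted p under 0.05. tex15 and mov10l1 are filled throughout, ddx4 is open with lowess offsets alone, and tdrd12 is open in 7 of 13 alternatives in v9.1.

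Likeness to other genes was measured over the 6 libraries of v9.1, as the root mean square difference of log2(CPM + 0.5) after each gene model's own mean was subtracted. Nearest to tex15 Xelaev18006177m were gene models of twist1, a mesenchymal transcription factor, at 0.183, zic1, a neural one, at 0.360, and the germ cell helicase gene ddx25 at 0.429. twist1 Xelaev18030956m and zic1 Xelaev18029829m had 0.0518 and 0.156 CPM on average in endoderm, so their likeness depends on the 0.5 added to each level. Nearest to tex15 Xelaev18009710m were mks1 at 0.143, grasp at 0.165 and mycl at 0.166. mov10l1 was nearest to tfap2e at 0.263, myoc at 0.394 and hhipl1 at 0.400. In endoderm these averaged 1.19, 0.217 and 0.786 CPM, so their likeness too depends on the 0.5 added to each level. Nearest to tdrd12 were mertk at 0.190, smg8 at 0.202 and adsl at 0.231. For ddx4 Xelaev18008273m, 612 gene models lay within 0.25, led by rest at 0.0422, gins4 at 0.0576 and foxo1 at 0.0646. For ddx4 Xelaev18002646m, 20 gene models did, led by ccdc64 at 0.134, thap7 at 0.148 and prep at 0.150. The corresponding number was 1 for tex15 Xelaev18006177m and 0 for mov10l1. The measure keeps the size of a change, so a low number does not show that a pattern is rare. The gene models of grip2, at log2 fold changes of 8.21 and 8.27, and of nanos1, at 7.75, were also far higher in PGCs.

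Other factors tied to the pathway were looked at as a list of PIWI partners and piRNA factors that the symbol rule leaves out, 14 gene models in v9.1. By edgeR's test 0 were higher and 3 lower in PGCs, with a median log2 fold change of 0.37. At an unadjusted p under 0.05 it gave 1 higher and 3 lower, and the DESeq2 Wald test called 2 higher and 3 lower. The chaperone gene hsp90ab1, whose protein helps load small RNAs into Argonaute proteins, was lower by both gene models, with log2 fold changes of -1.30 ± 0.088 (SE) for Xelaev18028538m and -0.77 ± 0.12 (SE) for Xelaev18026411m. Both calls were lost with lowess offsets, where the values were -0.15 and 0.18. The Tudor kinase gene stk31 Xelaev18033052m was lower in PGCs, with a log2 fold change of -1.12 ± 0.36 (SE), a call lost with total-count scaling, at -0.80, and without PGC replicates 1 and 3 or endoderm replicates 1 and 3, at -1.13, -0.86, -0.94 and -1.11. The other stk31 gene model, Xelaev18004607m, was at 0.63 ± 0.72 (SE) and did not pass. fkbp6, an HSP90 partner needed for piRNA amplification in mouse, had 21.3 ± 7.16 CPM in PGCs and 3.36 ± 4.79 CPM in endoderm (SD, n = 3 each) and did not pass (adjusted p = 0.139, edgeR).

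Other Tudor domain genes went both ways. Of 16 gene models, 4 were higher and 3 lower, 1 of these being stk31 Xelaev18033052m, which is counted in the list above too, with a median log2 fold change of 0.25, while scaling by total counts alone gave 5 higher and 0 lower. smn2 Xelaev18010864m, a gene of snRNP assembly, was higher by 2.52 ± 0.83 (SE), and phf20, a reader of histone methylation, by 1.52 ± 0.27 (SE) for Xelaev18043946m and 1.36 ± 0.42 (SE) for Xelaev18046624m. The calls of smn2 Xelaev18010864m and of phf20 Xelaev18046624m were lost with lowess offsets, at 2.18 and 1.09. smn2 also missed the threshold when any 1 of the PGC libraries or endoderm library 2 was left out, at 2.37 to 2.56, and phf20 without any library but PGC replicate 2, at 0.91 to 1.49. Leaving out 1 library each left 1 to 2 higher and 0 to 3 lower in this list.

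In the Argonaute and microRNA pathway, 4 of 13 gene models were higher and 2 lower, with a median of 0.27, while scaling by total counts alone gave 4 higher and 0 lower. Of those that passed, the largest changes were in mov10, described above, and in tarbp2 Xelaev18013580m, a Dicer partner, at 1.94 ± 0.63 (SE). Next was dicer1 Xelaev18039579m, the nuclease that makes microRNAs, at 0.95 ± 0.24 (SE). The call of this tarbp2 gene model was lost with lowess offsets, at 1.54, and without any library but endoderm replicate 1, at 1.59 to 2.03. The other gene models of these genes, tarbp2 Xelaev18016045m at -0.44 ± 0.83 (SE) and dicer1 Xelaev18041289m at -0.38 ± 0.28 (SE), did not pass. Neither did the gene models of ago1, Xelaev18015142m at 2.97 ± 1.21 (SE; adjusted p = 0.109, edgeR) and Xelaev18012448m at 0.74 ± 0.59 (SE). Of 7 gene models of meiosis genes, 1 passed, as higher, and the median was -0.18. Many listed symbols had no gene model in v9.1, through low counts or lack of annotation, and were not tested. Those with one were 7 of 22 for meiosis and 7 of 19 for the Argonaute and microRNA pathway. For other Tudor domain genes they were 8 of 23, and for other piRNA factors and PIWI partners 9 of 18.

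**Figure D5:**
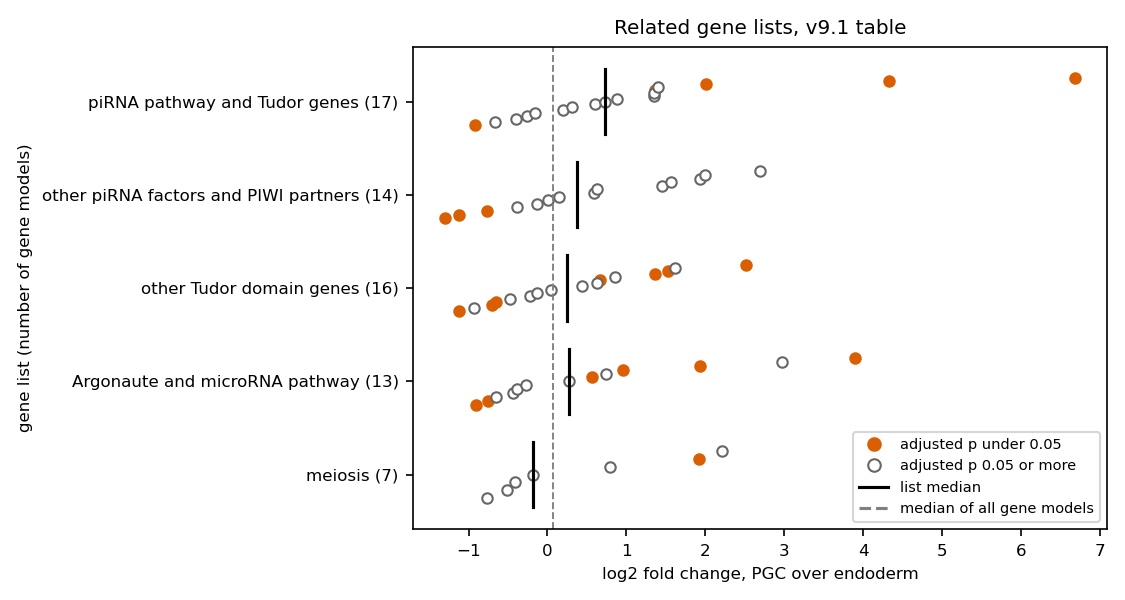
Log2 fold change, PGC over endoderm, of each v9.1 gene model in the piRNA and Tudor group and in 4 related lists; filled points had an adjusted p under 0.05, black bars are list medians and the dashed line is the median of all gene models, 0.07. In each list most points are open and lie on both sides of the dashed line.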

How the data were processed

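RNA of PGCs and endoderm was compared in 6 libraries, 3 per group, from 100-bp paired-end reads, per the labels' protocols. The submitters' processing notes list edgeR 3.12.0, HTSeq 0.6.0, TopHat2 2.1.0, SAMtools 1.2 and Bowtie2 2.2.6 without their roles. Beyond the table tags v9.1 and v7.1, the genome build is not given in the sources used here, nor are the use of strand and the treatment of reads that match several genes. The deposited files hold whole-number read counts per gene model. They also hold normalized signal columns, a score column, and the fold, log2 and p-value columns of the authors' own comparison. These were used only where the text names the authors' table. The authors' log2 values are endoderm over PGC, and the ratio quoted is the authors' deposited fold of PGC over endoderm.

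The two-sided quasi-likelihood test of edgeR 4.0.16 (R 4.3.3) was run on these counts with TMM scaling, filterByExpr (minimum count 10, minimum total 15, which removed none) and Benjamini-Hochberg adjustment over each table at 0.05. Standard errors and 95% intervals came from the same fit. The steps were also run on simulated counts, with an outcome that is not reported here. For pairs, that simulation gave both gene models the same dispersion, so it cannot check pairs whose dispersions differ. Intervals cover counting error and library spread as fitted, and the 3-count limit given beside a 0 covers counting error alone. Neither covers variation between embryos. Pairs of gene models with one symbol were compared with library as a block. Of the 19 symbols, 15 had a named gene in RefSeq's Xenopus_laevis_v10.1 table, used for names only. tex15, piwil1, piwil3 and tdrd9 had none, so their names rest on the deposited symbols alone.

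The genes, lists, tests and alternatives were chosen with earlier results of these data known. The text names every gene model of the group, up to 3 called gene models with the largest change in each related list, and the 3 most alike gene models of tex15, mov10l1, tdrd12 and ddx4. In the meiosis list, 1 called gene model is not reported by name here. fkbp6, the gene models of ago1 and the other gene models of stk31, tarbp2 and dicer1 were named after their values were seen. Alternatives were DESeq2 1.42.0 size factors and its Wald test, total-count scaling, lowess offsets, other filters, a replicate block, a 2-fold rule and leaving out each library.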

Additional observations from a re-analysis of the deposited data

How the results depend on the processing

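Both tex15 gene models and mov10l1 kept direction and call under all 13 alternatives run for them. Of these 13, lowess offsets alone ended the calls of ddx4. With lowess offsets, 2542 of all 10364 gene models passed in v9.1 and 2012 of all 7902 in v7.1. Of the piRNA and Tudor gene models, 3 then passed in v9.1, 0 of them lower, and in v7.1 0 passed, 0 higher and 0 lower. With a call rule that also asked for a 2-fold change, 0 of them were lower in v9.1, and in v7.1 1 passed and 0 were lower, which ended the ddx4 calls in both, while 1044 of all gene models were then lower in v9.1 and 773 of all were lower in v7.1. Total-count scaling shifted the overall median (log2) to 0.39 in v9.1 and to 0.25 in v7.1 and gave 1117 lower in v9.1. The DESeq2 Wald test called 1534 gene models higher in v7.1, 2 of them piRNA or Tudor gene models.

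Same-numbered libraries did not deviate together (correlations of -0.014 to 0.013), so the numbers are not taken to pair samples. With the number as a replicate block, 2869 gene models passed in v9.1 and 2197 in v7.1, tdrd12 had 1.36 (adjusted p = 0.0791, edgeR) in v9.1 and 1.51 (adjusted p = 0.0776, edgeR) in v7.1, and 1 piRNA or Tudor gene model passed in v7.1, 0 higher. The call of tarbp2 Xelaev18013580m was also lost with the block, at 2.12 (adjusted p = 0.0646, edgeR).

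Without 1 library each, 1 to 3 piRNA and Tudor gene models passed in v7.1, 0 to 2 as higher. Of all 7902 gene models of v7.1, 1823 to 2151 then passed. Of the 3512 symbol pairs, 168 to 285 passed, against 342 with all libraries, with 168 and 183 without PGC replicates 1 and 2. Among the piRNA and Tudor gene models, signs turned in those that did not pass. With total-count scaling piwil1 was at 0.17 and piwil2 at 0.055, and with lowess offsets asz1 in v9.1 was at -0.070. Without 1 library each, the ranges were -0.69 to 0.58 for piwil1, -0.41 to 0.031 for piwil2, -0.14 to 1.93 for mael, -0.13 to 0.53 for tdrd3 Xelaev18015741m, -0.45 to 0.73 for asz1 in v9.1, -0.39 to 0.79 for asz1 in v7.1, -0.043 to 0.73 for tdrkh and -0.74 to 0.17 for the difference between the ddx4 gene models. The causes were not tested. Endoderm library 3 held the fewest counts, and the part of depth in the spread of low gene models was not tested.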
